A study of Mus musculus with 140 samples.

Results

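10 genes of endothelial cell contacts and of barrier control were followed in mouse kidneys after sepsis surgery. They were chosen by name for their known roles, with earlier results of these data known, as the rows named Cdh5, Pecam1, Cldn5, Esam, Tjp1, Jam2, Jam3, S1pr1, Robo4 and Rasip1. Each symbol matched 1 row, so the set holds 10 of the 34255 genes counted. RNA came from male wild-type mice of the strain C57BL6/OlaHsd, and the labels give no age. Septic mice had cecal ligation and puncture (CLP), an operation that releases gut bacteria into the abdomen, and were studied at 4, 24 or 72 h. Sham mice had an operation without that injury and were studied at the same 3 times. Healthy mice, labelled 0 h, had neither. Each of these 7 groups held 4 mice, and each mouse gave 5 libraries, which makes 140 libraries from 28 mice. From each mouse, 1 library held the whole kidney, and the other 4 held vessels cut out of the cortex by laser microdissection, namely glomeruli, arterioles, post-capillary venules and peritubular capillaries. A microdissected vessel carries its wall and neighbouring cells along with its endothelium, so all values describe tissue pieces and not purified endothelial cells. QuantSeq sequences the 3′ ends of polyadenylated transcripts, so a count reflects copies of a transcript with little effect of its length, and no isoform is told apart. In such bulk samples, fewer cells of a type and less RNA per cell cannot be told apart.

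Endothelial cells line all blood vessels and control what leaves the blood. Neighbouring endothelial cells hold together at adherens junctions, built on VE-cadherin, and at tight junctions, built on claudin-5 and on adhesion molecules of the immunoglobulin family, which a scaffold of ZO proteins ties to the actin cytoskeleton. Signals from the sphingosine 1-phosphate receptor S1pr1, from the guidance receptor Robo4 and from the Rap1 effector Rasip1 act on this cytoskeleton and favour a closed barrier. In sepsis the barrier opens, plasma leaks into tissue, and leukocytes cross the vessel wall. In the kidney the glomerular endothelium filters plasma, arterioles set the inflow, peritubular capillaries feed the tubules, and post-capillary venules are a main place of leukocyte exit.

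The genes lie on 6 chromosomes, at these positions of the mouse build GRCm38 (GENCODE M21). Cdh5, which encodes VE-cadherin, is at chr8:104101625-104144511 on the plus strand. Pecam1, which encodes the contact and transmigration molecule CD31, is at chr11:106654217-106750628 on the minus strand. Cldn5, which encodes claudin-5, is at chr16:18776847-18778262 on the plus strand. The adhesion molecule genes of the tight junction are Esam at chr9:37528078-37538319 on the plus strand, Jam2 at chr16:84774123-84825928 on the plus strand and Jam3 at chr9:27097384-27155421 on the minus strand. Tjp1, which encodes the scaffold ZO-1, is at chr7:65296165-65527781 on the minus strand. The signalling genes are S1pr1 at chr3:115710433-115715072 on the minus strand, Robo4 at chr9:37401897-37415115 on the plus strand and Rasip1 at chr7:45627488-45639093 on the plus strand. Rasip1 overlaps Izumo1 and A030001D20Rik among other annotated genes, and the strand setting of the counting is not given in the sources used here. In whole kidney at 4 h, Izumo1 had 0 to 4 counts in CLP mice and 0 to 6 in sham mice, and A030001D20Rik had 3 to 16 and 6 to 12, against 132 to 981 counts for Rasip1.

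Libraries held 4.24 to 18.3 M counts (M for mega). Levels are given in CPM, counts scaled to one common library total, after TMM scaling, which was done within each compartment over its 28 libraries, and values are listed from mouse 1 to mouse 4 of a group. A zero allows up to 3 counts, which is 0.154 to 0.635 CPM depending on the library, and this limit covers counting error only. In whole kidney none of the 280 values of the 10 genes was 0. In peritubular capillaries 90 of the 160 values at 24 and 72 h were 0 (56.2%), against 2 of 120 (1.67%) in the mice at 4 h and the healthy mice. The matching shares at 24 and 72 h were 24 of 160 in venules, 13 of 160 in arterioles and 6 of 160 in glomeruli, against 0, 2 and 0 of 120. The number of genes detected in peritubular capillaries moved along with them, at 2949 to 5595 in CLP mice and 7137 to 9816 in sham mice at 72 h, and 10950 to 13327 in the mice at 4 h and the healthy mice. The other microdissected compartments also had fewer genes detected at 24 and 72 h than in the mice at 4 h and the healthy mice. Arterioles had 6534 to 9621 against 11339 to 13758, and glomeruli 8870 to 12726 against 12897 to 15114. Venules had 8357 to 11073 against 12014 to 13728. Replicates also spread far more in the microdissected tissue. The biological coefficient of variation (the spread between mice beyond counting error, as a share of the level) was 0.241 in whole kidney and 1.40 to 1.94 in the 4 microdissected compartments.

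The first comparison set each healthy microdissected compartment against the mean of the 3 others, within the same 4 mice, to show which vessels carried these genes before any operation. By edgeR's quasi-likelihood test with Benjamini-Hochberg adjustment over 12179 genes and a threshold of 0.05, 4 of the 10 genes were higher in arterioles (Cdh5, Pecam1, Cldn5 and Esam) and 4 lower in peritubular capillaries (Cdh5, Pecam1, Cldn5 and Jam2). In glomeruli 1 was higher (Cldn5), and in venules none passed. Of all genes tested, 7.32% passed in arterioles, 6.13% in peritubular capillaries, 4.18% in glomeruli and 0.591% in venules. DESeq2 called 6 of the 10 in arterioles, 7 in peritubular capillaries, 2 in glomeruli and 1 in venules, and 3 had an unadjusted p under 0.05 in venules by edgeR. The median log2 difference of the 10 genes was 1.94 in arterioles, 0.80 in glomeruli, 0.48 in venules and -2.56 in peritubular capillaries, beside -0.27, 0.38, 0.14 and -0.04 for all genes. With RLE in place of TMM scaling the median of all genes was -0.03 in arterioles and 0.26 in glomeruli, so levels between compartments carry an uncertainty of that size. The share of calls that were higher in arterioles was then 79%, against 67.5% with TMM.

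At the adherens junction, Cdh5 in the 4 healthy mice had 43.7, 206, 62.8 and 224 CPM in arterioles, 44.1, 79.8, 81.5 and 122 in glomeruli, 33.7, 13.3, 20.1 and 7.62 in venules and 0.239, 7.24, 0.890 and 0.377 in peritubular capillaries. Every arteriole and every glomerulus library thus lay above every peritubular capillary library. The log2 difference from the 3 others was 3.08 ± 0.91 in arterioles (SE, adjusted p = 0.0233) and -5.45 ± 1.42 in peritubular capillaries (adjusted p = 0.00881). The arteriole call was lost without mouse 2, 3 or 4 (adjusted p 0.0688 to 0.158), and the capillary call without mouse 3 or 4 (adjusted p 0.0653 to 0.0696). Pecam1 had 2620.1, 2443, 789 and 532 CPM in arterioles, 409.7, 248, 374 and 314 in glomeruli, 247, 161, 65.1 and 79.7 in venules and 59.3, 38.8, 40.9 and 96.5 in peritubular capillaries. Its order from arterioles to peritubular capillaries was tested between neighbours. Arterioles exceeded glomeruli by 2.04 ± 0.48 on the log2 scale (adjusted p = 0.00699, 2% of all genes passing). The step from venules up to glomeruli (1.48 ± 0.47, adjusted p = 0.0961) and the step from venules down to peritubular capillaries (-1.03 ± 0.47, adjusted p = 0.519) did not pass.

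At the tight junction, Cldn5 had 162, 366, 569.9 and 415 CPM in arterioles, 103, 157, 74.9 and 83.8 in glomeruli, 6.38, 1.87, 16.3 and 2.84 in venules and 0.716, 9.8, 1.89 and 1.32 in peritubular capillaries. Arterioles and glomeruli stood apart from venules and peritubular capillaries with no overlap. Its log2 difference from the 3 others was 4.89 ± 0.63 in arterioles (adjusted p = 1.94e-08), 2.5 ± 0.62 in glomeruli (adjusted p = 0.00775) and -4.59 ± 0.93 in peritubular capillaries (adjusted p = 0.000410). Between neighbours in its order, glomeruli exceeded venules by 3.99 ± 0.94 (adjusted p = 0.00916, 1.55% of all genes passing). Arterioles against glomeruli (1.79 ± 0.85, adjusted p = 0.288) and peritubular capillaries against venules (-1.33 ± 0.94, adjusted p = 0.806, 0.583% of all genes passing) did not pass. Esam had 287, 79, 505 and 368 CPM in arterioles, 118, 167, 152 and 88 in glomeruli, 52.6, 64.5, 97 and 30.9 in venules and 22.8, 56, 53.4 and 100.5 in peritubular capillaries. It was 1.94 ± 0.58 higher in arterioles (adjusted p = 0.0251), a call lost without mouse 1, 3 or 4 (adjusted p 0.0657 to 0.225). Jam2 had 116, 112, 82.9 and 0 CPM in arterioles, 0.483, 36.3, 7.19 and 12.1 in glomeruli, 27.9, 44.4, 72.1 and 1.16 in venules and 0, 0.142, 0.223 and 0.565 in peritubular capillaries, and its capillary libraries all lay at or near the limit of 3 counts. Its difference there was -6.88 ± 2.13 (adjusted p = 0.0370), lost without mouse 1, 2 or 3 (adjusted p 0.142 to 0.218). In arterioles it passed without mouse 4 (adjusted p = 0.00591).

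The other 5 genes had no call in any healthy compartment. Tjp1 had 15.1 to 155 CPM in glomeruli, 4.45 to 43.7 in venules, 0 to 17.2 in arterioles and 0.111 to 12.4 in peritubular capillaries, so its glomerular values all lay above its capillary values, while the test gave 2.92 ± 1.32 for glomeruli (adjusted p = 0.257). Robo4 was low in 3 of the 4 arteriole libraries, with 1.85, 0.617, 34.1 and 0.517 CPM in arterioles and 37.2, 65.4, 67.3 and 75 in venules. It ranged over 26.5 to 78.9 CPM in glomeruli and 0.754 to 94.4 CPM in peritubular capillaries, and both overlapped the venules. Its log2 difference was 2.82 ± 1.36 in venules (adjusted p = 0.486) and -3.60 ± 1.71 in arterioles (adjusted p = 0.197). Rasip1 lay at 48.9 to 178 CPM in arterioles, 78.3 to 139 in glomeruli, 40 to 143 in venules and 2.26 to 52.7 in peritubular capillaries. S1pr1 ranged over 6.02 to 86.7, 6.28 to 21, 0.351 to 29.2 and 0 to 17.3 CPM in the same order, and Jam3 over 0.517 to 172, 7.38 to 105, 28.6 to 79.5 and 2.87 to 18.1.

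Defining markers were checked in the same libraries. All 6 podocyte markers were higher in glomeruli, while in arterioles 2 of them were higher and 4 lower. Of 7 markers of smooth muscle and renin cells, 5 were higher and 1 lower in arterioles. Of 6 platelet and erythrocyte markers, 2 were higher in arterioles, 2 were higher in venules and 3 were lower in peritubular capillaries. Of 14 endothelial markers outside the set, 5 were higher and 2 lower in arterioles, 3 were higher in glomeruli, and 3 were lower in peritubular capillaries. In peritubular capillaries 8 of 10 proximal tubule markers were higher, and the capillary libraries therefore carried tubule RNA beside endothelial RNA. In venules 3 of the 10 were higher. Summed over 15 endothelial markers, healthy mice had 589.9 to 2059.6 CPM in peritubular capillaries and 2969.6 to 3793 CPM in arterioles on each compartment's own scale. The part of cell mixture in the compartment differences was not tested.

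At 4 h after surgery, the question was how CLP changed these genes in whole kidney. Rasip1 and Esam rose, and no gene of the set fell. Rasip1, whose protein binds Rap1 and acts on the cytoskeleton at endothelial contacts, had 105, 53.4, 56 and 37.4 CPM in CLP mice, against 19.7, 25.2, 16.4 and 26.9 CPM in sham mice. The lowest CLP mouse lay above the highest sham mouse, and CLP mouse 1 stood highest. The counts behind these values were 981, 497, 573 and 593 in CLP mice and 181, 239, 132 and 301 in sham mice. The means were 62.9 ± 29.1 and 22 ± 4.87 CPM (SD, n = 4 each), a log2 fold change of 1.51 ± 0.26 (SE, adjusted p = 0.000600 by edgeR over 14936 genes). The call held without any 1 of the 8 mice, with a log2 fold change of 1.14 to 1.69. In healthy mice Rasip1 had 16.7, 21.2, 14.4 and 17.4 CPM.

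Esam, a contact molecule of endothelial cells and platelets, had 78.9, 66.8, 79.4 and 56.8 CPM in CLP mice, against 45.2, 47.6, 38.4 and 49.5 CPM in sham mice, again with no overlap. Its means were 70.5 ± 10.8 and 45.2 ± 4.86 CPM (SD, n = 4 each), a log2 fold change of 0.64 ± 0.15 (adjusted p = 0.0133 by edgeR). This call rested on single mice. It was lost without CLP mouse 1 (adjusted p = 0.0805), CLP mouse 3 (0.0676) or sham mouse 3 (0.0799), with a log2 fold change of 0.57 to 0.73 over the 8 omissions. S1pr1, the main endothelial receptor for sphingosine 1-phosphate, had 47.2, 12.7, 26.5 and 34.6 CPM in CLP mice, against 14.1, 11.3, 13.3 and 17.1 CPM in sham mice. CLP mouse 2 lay within the sham range and the other 3 CLP mice above it. The log2 fold change was 1.12 ± 0.33 (adjusted p = 0.0766 by edgeR), which did not pass. S1pr1 passed without CLP mouse 2 (1.36, adjusted p = 0.0114), by DESeq2 (adjusted p = 0.0379) and with the replicate number as a block (0.0286).

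The other 7 genes did not pass at 4 h. Robo4, an endothelial receptor of the Slit family of guidance proteins, had 15.5 to 25.9 CPM in CLP mice and 13.4 to 20.4 CPM in sham mice (0.42 ± 0.20 on the log2 scale, unadjusted p = 0.0468, adjusted p = 0.474 by edgeR). Cdh5 had 23.6, 14.6, 17.9 and 16.4 CPM in CLP mice, against 10.6, 17.1, 14.5 and 14.6 CPM in sham mice (0.35 ± 0.22, adjusted p = 0.680). Ranges overlapped for both genes. The log2 fold changes of Pecam1, Cldn5, Tjp1, Jam2 and Jam3 lay between -0.26 and 0.39, with standard errors of 0.16 to 0.39. In all, 2 of 10 genes passed, beside 2.24% of all 14936 genes tested, and 3 passed by DESeq2. The 2 genes without overlap between CLP and sham values, Rasip1 and Esam, stand beside 7.73% of all genes. The median log2 fold change was 0.37 over the 10 genes and 0.00 over all genes.

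Endothelial markers outside the set did not move with Rasip1 and Esam at 4 h in whole kidney. Of 14 tested none was higher in CLP mice, and 2 were lower, namely Ehd3 (-0.82 on the log2 scale) and the VEGF receptor gene Kdr (-0.62). Their summed level was 669 to 725 CPM in CLP mice, against 724 to 811 CPM in sham mice, and no marker of the list was at 0 in all mice of either group. Leukocyte markers summed to 95.2 to 153 CPM in CLP mice and 55.5 to 76.3 CPM in sham mice, with 1 of 7 higher (S100a8) and none at 0 throughout. Platelet and erythrocyte markers summed to 1039.6 to 1901 CPM and 708 to 1958 CPM, and none of 6 passed. The part of leukocytes in the Rasip1 and Esam differences was not tested.

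**Figure D1:**
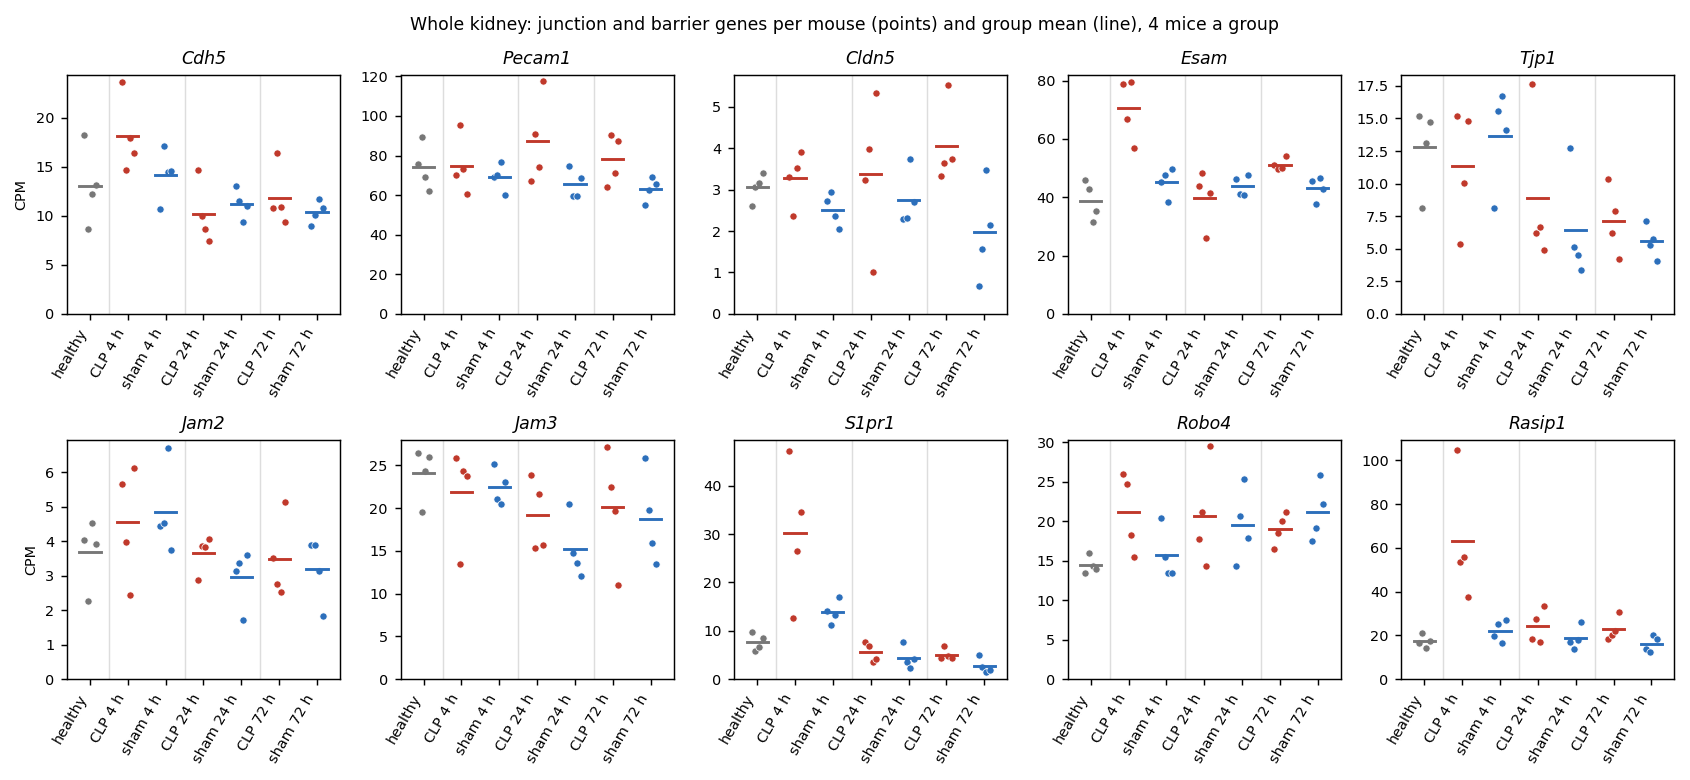
CPM of each of the 10 genes in whole kidney at 4, 24 and 72 h after CLP or sham surgery and in healthy mice (0 h), 1 point per mouse and a bar at the mean of 4 mice. Rasip1 at 37.4 to 105 CPM and Esam at 56.8 to 79.4 CPM in CLP mice at 4 h lay above all sham mice of that time.

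The DNA around the start of Rasip1, the gene of the set with the largest log2 fold change in whole kidney at 4 h, is shown with that of Cldn5, whose difference at 4 h did not pass the test. RefSeq (GRCm38.p6) gave the 250 bases before and 50 after a start for 4 of the 10 genes (Cldn5, Rasip1, Robo4 and Tjp1). The Tjp1 window (chr7:65371195-65371494, minus strand) lay at a RefSeq start inside the gene span given above, away from the span's ends. Capitals mark GGAA on either strand, that is GGAA or TTCC as read here, the core letters recognised by ETS factors such as Erg, which are active in endothelium. Rasip1 (chr7:45627287-45627586, plus strand) held 5 of them and Cldn5 (chr16:18776597-18776896, plus strand) none, while Robo4 held 4 and Tjp1 3. Of all 32851 promoter windows in the table, 96% held at least 1 and 28.6% at least 5, with a median of 3.
Rasip1: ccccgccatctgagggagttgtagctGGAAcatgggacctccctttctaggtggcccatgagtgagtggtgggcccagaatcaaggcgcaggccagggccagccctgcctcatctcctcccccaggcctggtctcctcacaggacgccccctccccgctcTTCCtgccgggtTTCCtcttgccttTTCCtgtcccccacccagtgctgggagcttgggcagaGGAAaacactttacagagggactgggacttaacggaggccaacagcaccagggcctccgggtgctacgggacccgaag
Cldn5: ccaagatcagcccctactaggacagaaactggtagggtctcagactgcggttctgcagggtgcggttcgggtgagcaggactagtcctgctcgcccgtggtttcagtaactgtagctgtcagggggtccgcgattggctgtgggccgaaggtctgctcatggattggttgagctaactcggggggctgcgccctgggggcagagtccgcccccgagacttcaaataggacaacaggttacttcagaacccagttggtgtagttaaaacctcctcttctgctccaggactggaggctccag

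The microdissected tissue showed where the early change was seen. Rasip1 was higher in CLP than in sham mice in glomeruli, where it had 765, 456, 552 and 525 CPM in CLP mice, against 112, 130.3, 176 and 167 CPM in sham mice. All 4 CLP mice lay far above all sham mice. The means were 574 ± 133 and 146 ± 30.1 CPM (SD, n = 4 each), a log2 fold change of 1.97 ± 0.42 (adjusted p = 0.0318 by edgeR). The direction held in all 8 omissions of 1 mouse, with 1.80 to 2.07 on the log2 scale. The call was kept without CLP mouse 2 and lost without CLP mouse 1, 3 or 4 or any 1 sham mouse (adjusted p 0.0610 to 0.237). Esam had 496, 429, 505 and 556 CPM in CLP mice, against 242, 286, 235 and 309.6 CPM in sham mice (0.89 ± 0.33, adjusted p = 0.887 by edgeR). S1pr1 had 131, 107, 187 and 154 CPM in CLP mice, against 62.5, 44.9, 33 and 78 CPM in sham mice (1.41 ± 0.95, adjusted p = 1). For both genes the groups did not overlap, yet the test over all glomerular libraries did not pass. In glomeruli 1 of 10 genes passed, beside 0.11% of all genes, and 3 of 10 had no overlap, beside 4.95% of all genes. DESeq2 also called 1. Endothelial markers outside the set summed to 3297 to 6193 CPM in CLP glomeruli and 5641 to 8018 CPM in sham glomeruli, and leukocyte markers to 945 to 1743 and 95.2 to 436 CPM. No marker of these lists passed there, and their part in the result was not tested.

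In post-capillary venules, Rasip1 had 218, 253, 198 and 87.2 CPM in CLP mice, against 96.2, 16.7, 33.1 and 14.3 CPM in sham mice (2.24 ± 1.24 on the log2 scale, adjusted p = 0.876 by edgeR). The 3 highest values were those of CLP mice, and CLP mouse 4 lay below sham mouse 1. In arterioles, it had 660.3, 448, 238 and 276 CPM in CLP mice, against 201, 94.4, 104 and 301 CPM in sham mice (1.21 ± 1.63, adjusted p = 1). In peritubular capillaries, it had 63, 26.8, 52.1 and 24.8 CPM in CLP mice, against 0.621, 8.19, 26.1 and 26.2 CPM in sham mice (1.45 ± 2.45, adjusted p = 1). Thus Rasip1 had a positive log2 fold change in all 4 compartments, with standard errors up to 2.45 outside glomeruli. The log2 fold changes of Esam were 0.04 ± 0.58 in arterioles, 0.80 ± 0.82 in venules and 1.16 ± 2.16 in peritubular capillaries, and those of S1pr1 were -0.45 ± 1.51, 0.55 ± 1.85 and 2.24 ± 2.82. Cldn5 in arterioles had 110.3, 132, 199.99 and 279 CPM in CLP mice, against 597, 638, 293 and 284 CPM in sham mice. All 4 CLP mice lay below all sham mice, which made it the 1 gene of 10 without overlap there, beside 3.29% of all genes (-1.33 ± 0.64, unadjusted p = 0.0378, adjusted p = 1). None of the 10 genes passed in arterioles or venules and none of the 9 tested in peritubular capillaries, where Jam2 was too low, by edgeR or DESeq2. Unadjusted p was under 0.05 for 1, 0 and 0 of them. Of all genes, 0.00821% passed in arterioles, 0% in venules and 0% in peritubular capillaries. A test of whether the CLP effect differed between the 4 compartments at 4 h, with the mouse as a block, passed for 0 of the 10 genes, with 0 at an unadjusted p under 0.05, beside 0.021% of all genes by edgeR. DESeq2 was not run for this test.

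At 24 and 72 h in whole kidney, no gene of the set passed by edgeR or DESeq2. At 24 h, 0 of 10 passed, beside 5.28% of all genes, with 1 at an unadjusted p under 0.05. At 72 h, 0 of 10 passed, beside 3.89% of all genes, with 2 at an unadjusted p under 0.05. Rasip1 had 18.5, 27.3, 17 and 33.6 CPM in CLP mice, against 17.1, 13.7, 18.1 and 26 CPM in sham mice at 24 h (0.37 ± 0.27 on the log2 scale, adjusted p = 0.566 by edgeR). At 72 h it had 18.4, 20.2, 21.8 and 30.8 CPM in CLP mice, against 13.8, 12.3, 20.2 and 18.3 CPM in sham mice (0.50 ± 0.27, adjusted p = 0.446). CLP and sham mice overlapped at both times. Esam had 43.8, 48.2, 26 and 41.4 CPM in CLP mice, against 46.3, 41, 40.6 and 47.5 CPM in sham mice at 24 h (-0.13 ± 0.15, adjusted p = 0.758). At 72 h its 4 CLP mice, at 51, 49.7, 49.9 and 54.3 CPM, all lay above the sham mice, at 45.4, 37.6, 46.7 and 42.7 CPM (0.25 ± 0.15, adjusted p = 0.529). It was the 1 gene of 10 without overlap at 72 h, beside 9.67% of all genes, and at 24 h there was none, beside 8.15%.

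Pecam1, which marks leukocytes and platelets as well as endothelium, had 67.2, 91, 74.1 and 118 CPM in CLP mice, against 74.6, 59.4, 59.3 and 68.7 CPM in sham mice at 24 h. CLP mice 2 and 4 lay above every sham mouse, and CLP mice 1 and 3 did not. The log2 fold change was 0.42 ± 0.16 (adjusted p = 0.145 by edgeR), and without CLP mouse 1 it was 0.52 and passed (adjusted p = 0.0465). At 72 h it was 0.31 ± 0.16 (adjusted p = 0.402). Leukocyte markers summed to 213 to 248 CPM in CLP mice and 81.8 to 112 CPM in sham mice at 24 h, with 5 of 7 higher, and to 437 to 642 CPM and 77 to 89.4 CPM at 72 h, with 7 of 7 higher. Ly6g was at 0 in all sham mice at both times. Their part in the Pecam1 values was not tested. Endothelial markers summed to 786 to 957 CPM in CLP mice and 707 to 801 CPM in sham mice at 72 h, and none of 14 passed at 24 or 72 h.

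Cldn5 had 3.32, 3.66, 5.54 and 3.73 CPM in CLP mice, against 0.670, 1.56, 3.49 and 2.15 CPM in sham mice at 72 h. Sham mouse 3 lay within the CLP range, and the other 3 sham mice below it (1.06 ± 0.39, unadjusted p = 0.0113, adjusted p = 0.160 by edgeR). S1pr1 had 4.3, 6.93, 4.7 and 4.35 CPM in CLP mice, against 4.95, 2.49, 1.57 and 1.93 CPM in sham mice at 72 h, and here sham mouse 1 lay within the CLP range (0.89 ± 0.41, unadjusted p = 0.0364, adjusted p = 0.307). At 24 h the log2 fold change of S1pr1 was 0.36 ± 0.37 and that of Cldn5 was 0.30 ± 0.38. Cdh5 was at 7.44 to 14.7 CPM in CLP mice and 9.4 to 13 CPM in sham mice at 24 h (-0.13 ± 0.23), and at 9.33 to 16.4 and 8.97 to 11.7 CPM at 72 h (0.20 ± 0.23). Robo4 was at 0.08 ± 0.21 at 24 h and -0.15 ± 0.21 at 72 h on the same log2 scale. Jam2 was at 0.32 ± 0.33 and 0.14 ± 0.34. The median log2 fold change of the 10 genes was 0.33 at 24 h and 0.28 at 72 h, beside 0.02 and 0.03 over all genes.

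Tjp1 and Jam3 varied widely between the mice of a group. Tjp1 had 17.7, 6.22, 6.68 and 4.91 CPM in CLP mice, against 12.8, 5.1, 4.55 and 3.33 CPM in sham mice at 24 h (0.48 ± 0.41 on the log2 scale, adjusted p = 0.652 by edgeR). At 72 h it had 10.4, 6.18, 7.89 and 4.2 CPM in CLP mice, against 7.1, 5.3, 5.75 and 4.08 CPM in sham mice (0.36 ± 0.43, adjusted p = 0.827). Mouse 1 was the highest of its group at both times under both operations. Between mice of the same number, CLP lay above sham in 4 of 4 for Tjp1 at 24 h and at 72 h, and for Jam3 in 4 of 4 at 24 h and 3 of 4 at 72 h. Over all 7 whole kidney groups, mouse 1 was the highest in 6 for Tjp1 and in 7 for Jam3. The labels do not say what the replicate numbers stand for, and what mice of 1 number share was not tested. Jam3 had 15.4 to 23.9 CPM in CLP mice and 12 to 20.5 CPM in sham mice at 24 h (0.33 ± 0.24), and 11 to 27.2 and 13.4 to 25.8 CPM at 72 h (0.10 ± 0.24).

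**Figure D2:**
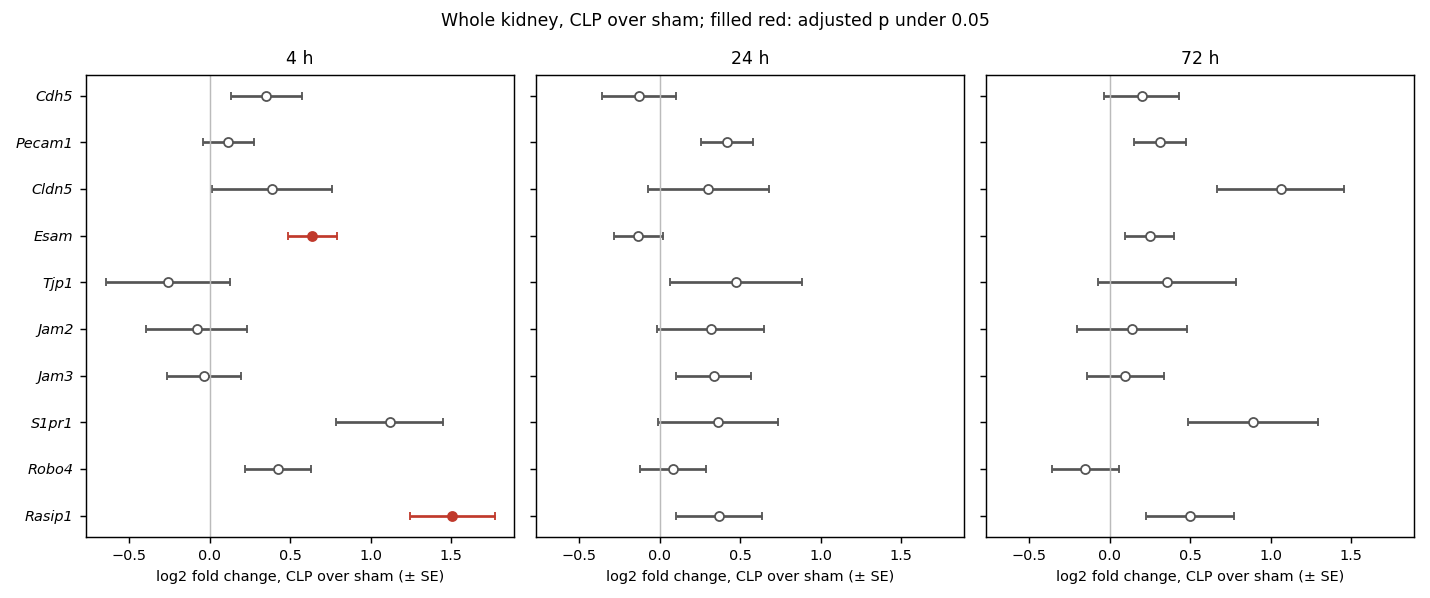
Log2 fold change of CLP over sham mice in whole kidney for the 10 genes at 4, 24 and 72 h, with bars of 1 standard error (n = 4 mice in each group). Rasip1 at 1.51 and Esam at 0.64, both at 4 h, passed the adjusted threshold of 0.05.

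Whether the CLP effect itself changed with time was tested in whole kidney as the difference of log2 fold changes, the later time minus the earlier. For Rasip1 it was -1.14 ± 0.37 between 24 and 4 h (adjusted p = 0.128 by edgeR) and -1.01 ± 0.38 between 72 and 4 h (adjusted p = 0.187). The first of these passed without CLP mouse 4 of 4 h (adjusted p = 0.0419). For Esam it was -0.77 ± 0.21 between 24 and 4 h (adjusted p = 0.0539). Esam passed by DESeq2 (adjusted p = 0.0284), with the replicate number as a block (0.0375), and without CLP mouse 4 of 4 h (0.0273), CLP mouse 1 of 24 h (0.0447) or CLP mouse 2 of 24 h (0.0354). By edgeR 0 of the 10 genes passed in each of the 3 time comparisons, with 2, 0 and 1 at an unadjusted p under 0.05 for 24 against 4 h, 72 against 24 h and 72 against 4 h. DESeq2 called 1, 0 and 0. Of all genes, 1.84%, 0.509% and 2.52% passed. A change of the Rasip1 or Esam effect after 4 h was thus not shown at the adjusted threshold, although the CLP effect passed at 4 h alone.

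Later values in the microdissected tissue came from thin libraries, above all in peritubular capillaries. There Robo4 was lower in CLP mice at 72 h, in libraries with 2949 to 5595 genes detected, against 7137 to 9816 in sham mice. Robo4 had 0 counts in all 4 CLP mice, against 0.154, 69.5, 62.4 and 15.9 CPM in sham mice, the first of them below 1 CPM. Against the limit of 3 counts, averaged over the CLP libraries (0.317 CPM), Robo4 was at least 117-fold lower in CLP mice by the mean (adjusted p = 0.0193 by edgeR). This bound covers counting error only, and sham mouse 1 lay below that limit. Robo4 was the 1 of 9 genes tested that passed, beside 22.3% of all genes with TMM scaling. At that share the set was not called more often than all genes. The number of all genes that passed was 2625 with TMM and 1032 with RLE scaling, so this comparison depended on the scaling. The call held in every omission of 1 mouse (adjusted p 0.0194 to 0.0426) and was lost when the 8 libraries of that time were fitted alone. DESeq2 called 4 of the 9. Cdh5 had 0 counts in all 4 CLP mice, against 8.18, 0, 0 and 0 CPM in sham mice (adjusted p = 0.0729), so a single sham mouse held its counts. S1pr1 had 0 counts in all CLP mice, against 12.3, 1.58, 0.968 and 0 CPM in sham mice (adjusted p = 0.0576). Pecam1 had 0, 85.6, 0.103 and 0 CPM in CLP mice, against 39.8, 159, 26.4 and 179 CPM in sham mice, and passed without CLP mouse 2 (adjusted p = 0.00734). Among CLP mice Esam had counts in mouse 3 only, with counts in all 4 sham mice, and it passed as lower without that mouse (adjusted p = 0.0439 by edgeR). Rasip1 had counts in CLP mouse 4 (208 CPM) and sham mouse 1 (55.3 CPM) only. Without that sham mouse Rasip1 passed as higher in CLP mice (11.8 on the log2 scale, adjusted p = 0.0494 by edgeR). CLP mouse 4 alone carried that difference. The median log2 fold change was -2.24 over the 9 genes and -1.28 over all genes. With RLE scaling the median of all genes was -0.90, so part of any fall in these libraries depended on the scaling. At 4 and 24 h those medians were -0.11 and -0.13 with TMM, and 0.04 and 0.00 with RLE. The 15 endothelial markers outside the set summed to 4.79 to 607 CPM in CLP mice and 745 to 959 CPM in sham mice, with 3 of 14 lower, Erg and Sox18 at 0 in all CLP mice, and Sox17 and Sox18 at 0 in all sham mice. Their part in the Robo4 result was not tested.

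At 24 h in peritubular capillaries 0 of 9 genes passed by edgeR, beside 0.051% of all genes, with 2 at an unadjusted p under 0.05, and DESeq2 called 3. Robo4 had 311, 0, 0 and 0 CPM in CLP mice, against 0.318, 0, 0 and 0 CPM in sham mice (adjusted p = 0.112). CLP mouse 1 alone carried that difference, and without it the log2 fold change was -2.80. Cldn5 had 0, 1.54, 0 and 11.8 CPM in CLP mice, against 0 in every sham mouse, and was at least 11.3-fold higher by the mean (adjusted p = 0.129). In venules at 72 h, S1pr1 had 9.37, 0, 26.5 and 1.27 CPM in CLP mice, against 0 in every sham mouse, at least 32.7-fold higher by the mean (adjusted p = 0.280 by edgeR and 8.02e-05 by DESeq2). CLP mouse 2 had no count, so the CLP and sham mice overlapped at 0.

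In arterioles at 72 h, Cdh5 had 454, 117, 85.7 and 82.2 CPM in CLP mice, against 15.2, 16.1, 0 and 43.6 CPM in sham mice. All CLP mice lay above all sham mice, the 1 gene of 10 without overlap there, beside 2.08% of all genes, and CLP mouse 1 stood far above the rest. The log2 fold change was 3.30 ± 1.33 (adjusted p = 0.158 by edgeR and 0.00372 by DESeq2), beside 0.20 ± 0.23 in whole kidney. In glomeruli at 72 h, Pecam1 had 661, 519.5, 387 and 654 CPM in CLP mice, against 1064, 892, 964 and 831 CPM in sham mice. All CLP mice lay below all sham mice (-0.76 ± 0.28, adjusted p = 0.404), the opposite side from whole kidney at that time. It was the 1 gene of 10 without overlap at 72 h in glomeruli, beside 2.85% of all genes. At 24 h that gene was Robo4, with 32.7, 48.4, 0 and 35.6 CPM in CLP mice, against 49.1, 96.2, 59.9 and 77.3 CPM in sham mice (-1.27 ± 0.71, adjusted p = 0.513), beside 3.9% of all genes. S1pr1 in glomeruli at 24 h had 34.7, 86.1, 0 and 63 CPM in CLP mice, against 11.2, 0.658, 4.88 and 15 CPM in sham mice (2.53 ± 0.99, adjusted p = 0.332).

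By edgeR 0 of the 10 genes passed in glomeruli, arterioles and venules at 24 or 72 h. The share of all genes that passed was 0.137% in glomeruli, 0.0164% in arterioles and 0.0813% in venules at 24 h, and 0.0343%, 0% and 0.0443% at 72 h. An unadjusted p under 0.05 was reached by 1, 0 and 0 of the 10 genes at 24 h and by 1, 1 and 1 at 72 h. DESeq2 called 0, 0 and 0 at 24 h and 0, 1 and 1 at 72 h. The CLP effect differed between the 4 compartments for 0 of the 10 genes at 24 h, beside 0.161% of all genes, and for 0 at 72 h, beside 1.48%, with 1 and 3 at an unadjusted p under 0.05. The smallest p at 72 h was that of Robo4 (unadjusted p = 0.00269, adjusted p = 0.105), followed by Pecam1 (adjusted p = 0.132) and S1pr1 (adjusted p = 0.231). At 72 h this test passed for Pecam1 without CLP mouse 2 (adjusted p = 5.01e-08) and for Esam without CLP mouse 3 (0.0237), the mice that held their counts in peritubular capillaries.

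The sham operation alone was compared with no operation, at 4 h against healthy mice. S1pr1 in whole kidney had 14.1, 11.3, 13.3 and 17.1 CPM in sham mice, against 9.84, 5.86, 6.57 and 8.48 CPM in healthy mice. The log2 fold change was 0.86 ± 0.34 (adjusted p = 0.376 by edgeR). It passed when those 8 libraries were fitted alone (0.85, adjusted p = 0.0436). Sham mice at 24 and 72 h had 2.22 to 7.71 and 1.57 to 4.95 CPM of S1pr1. Rasip1 and Esam had log2 fold changes of 0.35 ± 0.27 and 0.22 ± 0.15 in sham against healthy whole kidney (adjusted p = 0.827 and 0.773). In whole kidney 0 of 10 genes passed, with 1 at an unadjusted p under 0.05, beside 0.937% of all genes. In glomeruli, arterioles, venules and peritubular capillaries 0 passed and 0 had an unadjusted p under 0.05, beside 0.00686%, 0%, 0% and 0% of all genes, and DESeq2 called 0 in all 5 compartments. All sham mice lay above all healthy mice for 2 genes in glomeruli, 2 in arterioles and 1 in whole kidney (S1pr1). In glomeruli these were Esam (235 to 310 CPM in sham mice, 120 to 225 in healthy mice) and S1pr1 (33 to 78 and 8.55 to 27.2 CPM). The share of all genes without such overlap was not computed, so these counts cannot be judged against all genes. CLP against sham and sham against healthy share the sham mice.

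Partners of the set were read from 6 lists of other genes, in whole kidney first. Of 10 sphingosine 1-phosphate genes, 1 was higher at 4 h. This was Sphk1, a kinase that makes the lipid, with 27.4 ± 9.51 CPM in CLP mice, against 8.31 ± 1.12 CPM in sham mice (1.72 ± 0.26 on the log2 scale, adjusted p = 9.17e-05). At 24 h the transporter gene Spns2 was higher (0.71 ± 0.21 on the log2 scale, adjusted p = 0.0417), and at 72 h Apom, whose protein carries the lipid in plasma, was lower (-0.99 ± 0.23 on the log2 scale, adjusted p = 0.00898). Of 12 tested genes of the Rap1 and CCM proteins around Rasip1, 1 was lower at 4 h, Arhgap29 (-0.47 ± 0.13 on the log2 scale, adjusted p = 0.0439), and 0 passed at 24 h. At 72 h, 2 of the 12 were higher, namely the flow-responsive factor Klf2 (0.79 ± 0.17 on the log2 scale, adjusted p = 0.00325) and the Rap1 exchange factor gene Rapgef5 (0.57 ± 0.17 on the log2 scale, adjusted p = 0.0461). The calls of Sphk1, Klf2 and Apom held in all 8 omissions of 1 mouse. That of Arhgap29 was lost in 5 of 8 omissions, that of Spns2 in 6 and that of Rapgef5 in 7, with adjusted p up to 0.207.

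Of 13 tight junction partners, 1 was lower at 4 h, the angiomotin family gene Amotl2 with 27.4 ± 3.23 CPM in CLP mice, against 45.3 ± 4.9 CPM in sham mice (-0.73 ± 0.16 on the log2 scale, adjusted p = 0.00856), and 0 passed later. Of 5 Slit and Robo partners, 1 was lower at 24 h, the ligand gene Slit2 (-0.66 ± 0.19 on the log2 scale, adjusted p = 0.0311), and 0 passed at 4 or 72 h. The Amotl2 call held in all 8 omissions of 1 mouse, and the Slit2 call was lost in 7 of 8. None of 12 adherens junction partners and none of 8 tested genes of other endothelial contacts and permeability passed in whole kidney at any time by edgeR. Their counts at an unadjusted p under 0.05 were 1, 1 and 0, and 1, 0 and 2, at 4, 24 and 72 h. In glomeruli at 24 h, Plpp3, whose product removes sphingosine 1-phosphate outside cells, was higher with 1235 ± 251 CPM in CLP mice, against 542 ± 39.2 CPM in sham mice (1.19 ± 0.26 on the log2 scale, adjusted p = 0.0279), and Rapgef5 was higher with 236 ± 89.1 CPM in CLP mice, against 68.9 ± 21.2 CPM in sham mice (1.77 ± 0.40 on the log2 scale, adjusted p = 0.0415). Both glomerular calls were lost in most omissions of 1 mouse, that of Plpp3 in 7 of 8 and that of Rapgef5 in 6 of 8. No gene of these lists passed in glomeruli at 4 or 72 h, or in arterioles or venules at any time. No gene of these lists passed in peritubular capillaries at 4 or 24 h. At 72 h there, 1 of 11 tested adherens junction partners, 1 of 13 tight junction partners, 1 of 8 other contact genes and 1 of 4 Slit and Robo partners were lower, beside 1 higher, Slit3, while 22.3% of all genes passed there. Robo2, Ctnnd1 and Gja1 among them had 0 counts in all CLP mice, as had Robo4 in the set. The list medians in whole kidney lay between -0.07 and 0.16 at 4 h, -0.33 and 0.13 at 24 h, and 0.01 and 0.31 at 72 h on the log2 scale, beside the medians of all genes given above.

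The genes with the most similar patterns were found as the smallest root mean square difference of row-centred log2(mean CPM + 1) over the 35 group means, among the 11377 genes that averaged 5 CPM or more. These points share the compartments' own scales and the thin late capillary libraries, so the distances are descriptive. For Cdh5 the 3 nearest were Ptpn12 (0.796), Klf2 (0.801) and Crip2 (0.826), beside a median of 1.93 over all eligible genes. Rasip1 was nearest to Adamts1 (0.538, median 1.74) and Esam to the hypoxia factor gene Epas1 (0.525, median 1.64). Pecam1 was nearest to Arhgef25 (0.574), S1pr1 to Fas (0.780) and Robo4 to Pacs2 (0.833). Jam3 was nearest to Card19 (0.593), Jam2 to Col8a1 (0.896), Tjp1 to Hdac7 (0.936) and Cldn5 to 4631405J19Rik (1.14), the largest distance of the 10.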

How the data were processed

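QuantSeq 3′ RNA sequencing gave 140 libraries. The authors' deposited file gives, for every Ensembl gene and library, an unnormalised read count, a whole number in each cell. Tools named in the submitters' processing notes are SAMtools 1.9, STAR 2.7, HTSeq 0.13, featureCounts, MultiQC 1.7 and FastQC 0.11.8, with the builds GRCm38.p6 and GRCm39. Which build and counter gave the table, the strand setting and any removal of duplicates are not given in the sources used here. For the 20 libraries of healthy mice the header says 4 h where the labels say 0 h, and the labels were followed. No 2 libraries were identical.

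In R 4.3.3, all genes were fitted with edgeR 4.0.16 (TMM scaling, filterByExpr by group, robust quasi-likelihood F test, two-sided), and Benjamini-Hochberg adjusted p-values under 0.05 over all genes tested passed. CLP against sham and sham at 4 h against healthy used the 28 libraries of a compartment. Healthy compartments (16 libraries, with CPM on their own common scale) and differences of the CLP effect between compartments (32 libraries per time) had the mouse as a block. edgeR loads limma 3.58.1. The alternatives were RLE scaling, no filter on low counts, a fit to the 8 libraries compared, DESeq2 1.42.0, the replicate number as a block, and the omission of each mouse in turn. The fits were also run on simulated data, and the outcome is not reported here. Library totals were 4.24 to 18.3 M counts, in a similar range for every compartment, and the spread between mice was wider in microdissected tissue. The limit for a zero is 3 counts per library. It covers counting error only, and PCR copies of one molecule were not told apart here. For a fold against a group at 0, the other group's mean CPM was divided by the mean limit over the libraries at 0.

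All 10 genes are described in every comparison, and up to 4 genes of smallest adjusted p per partner list, of which 1 is not reported here. The genes, lists and tests were chosen with earlier results of these data known. Replicate numbers belong to different mice, so they pair nothing by design. Nothing in the labels says how the mice were housed or processed. The p-values rest on the spread between the 4 mice of a group, estimated over all libraries of a fit. For CLP against sham within a compartment, the main fit held its 28 libraries. A p-value at any time therefore also carries the spread between mice at the other times.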

Additional observations from a re-analysis of the deposited data

Results flagged for a closer look

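In groups of 4 mice, a single mouse was set apart when its gap to the nearest mouse, divided by the range of the group, exceeded Dixon's 95% critical value for 4 samples. Of 341 groups of the 10 genes tested, 46 held such a mouse, 28 of them in peritubular capillaries, 7 in venules, 6 in arterioles, 3 in whole kidney and 2 in glomeruli. Chance gives about 1 in 20 groups where values are normally distributed. CPM with many zeros do not meet that condition, and 15 of the 46 had the ratio 1, so the 2 rates cannot be compared. The ratio of each is given in parentheses.

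In whole kidney, Jam3 in mouse 2 of the CLP 4 h group was at 13.4 CPM while the others lay at 23.8 to 25.8 CPM (0.836). S1pr1 in mouse 2 of the CLP 72 h group was at 6.93 CPM while the others lay at 4.3 to 4.7 CPM (0.848). Tjp1 in mouse 1 of the CLP 24 h group was at 17.7 CPM while the others lay at 4.91 to 6.68 CPM (0.862). In glomeruli, Cldn5 in mouse 2 of the CLP 4 h group was at 89.3 CPM while the others lay at 211 to 219 CPM (0.932). Cldn5 in mouse 2 of the sham 4 h group was at 85.7 CPM while the others lay at 156 to 168 CPM (0.854).

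In arterioles, Cdh5 in mouse 1 of the CLP 72 h group was at 454 CPM while the others lay at 82.2 to 117 CPM (0.907). Cldn5 in mouse 4 of the CLP 24 h group was at 413 CPM while the others lay at 154 to 179 CPM (0.902). Jam3 in mouse 2 of the sham 72 h group was at 217 CPM while the others lay at 11.5 to 41.7 CPM (0.853). Robo4 in mouse 2 of the sham 72 h group was at 38.7 CPM while the others lay at 0 to 4.32 CPM (0.888). Robo4 in mouse 3 of the healthy group was at 36.4 CPM while the others lay at 0.547 to 1.87 CPM (0.963). Tjp1 in mouse 3 of the CLP 72 h group was at 86.8 CPM while the others lay at 0.279 to 12 CPM (0.865).

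In venules, Cldn5 in mouse 3 of the sham 72 h group was at 3.11 CPM while the others had 0 counts (1). Jam2 in mouse 4 of the CLP 72 h group was at 16.8 CPM while the others lay at 0 to 1.34 CPM (0.920). Jam2 in mouse 1 of the sham 72 h group was at 17.5 CPM while the others lay at 0 to 0.913 CPM (0.948). Tjp1 in mouse 1 of the CLP 4 h group was at 12.4 CPM while the others lay at 0.579 to 2.45 CPM (0.842). Tjp1 in mouse 3 of the CLP 72 h group was at 65.7 CPM while the others lay at 0.115 to 3.44 CPM (0.949). Tjp1 in mouse 1 of the sham 24 h group was at 25.7 CPM while the others lay at 0.189 to 3.61 CPM (0.866). Tjp1 in mouse 2 of the sham 72 h group was at 162 CPM while the others lay at 0.505 to 6.71 CPM (0.962).

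In peritubular capillaries, 14 of the 28 had the ratio 1, because a single mouse had counts and the other 3 had 0. These were Cdh5 in sham 72 h (8.18 CPM), Cldn5 in sham 72 h (0.874 CPM), Esam in CLP 72 h (52.7 CPM), Jam2 in CLP 24 h (0.0787 CPM), Jam3 in CLP 24 h (92.4 CPM), Rasip1 in CLP 72 h (208 CPM), Rasip1 in sham 72 h (55.3 CPM), Robo4 in CLP 24 h (311 CPM), Robo4 in sham 24 h (0.318 CPM), S1pr1 in CLP 24 h (5.65 CPM), S1pr1 in sham 24 h (9.07 CPM), Tjp1 in CLP 72 h (79 CPM), Tjp1 in sham 24 h (2.15 CPM) and Tjp1 in sham 72 h (16.1 CPM). In the other 14, the highest mouse and its ratio were Cdh5 in sham 4 h (15.9 CPM, 0.888), Cdh5 in healthy (7.5 CPM, 0.916), Cldn5 in CLP 4 h (5.08 CPM, 0.875), Cldn5 in CLP 24 h (11.8 CPM, 0.869), Cldn5 in sham 4 h (48 CPM, 0.983), Cldn5 in healthy (10.1 CPM, 0.885), Jam2 in CLP 4 h (9.89 CPM, 0.887), Jam3 in CLP 72 h (2.26 CPM, 0.932), Pecam1 in CLP 72 h (85.6 CPM, 0.999), Rasip1 in CLP 24 h (37.3 CPM, 0.835), S1pr1 in CLP 4 h (26.9 CPM, 0.943), S1pr1 in sham 4 h (3.95 CPM, 0.846), S1pr1 in sham 72 h (12.3 CPM, 0.872) and S1pr1 in healthy (17.9 CPM, 0.958).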

How the results depend on the processing

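With RLE scaling and without the filter on low counts, the number of the 10 genes called stayed within 1.5 times in all 30 comparisons. With DESeq2 the number called was 1 in arterioles at 72 h, 3 and 4 in peritubular capillaries at 24 and 72 h, 1 in venules at 72 h, and 1 for the CLP effect at 24 against 4 h in whole kidney. In healthy tissue it was 2 for glomeruli, 7 for peritubular capillaries and 1 for venules. Fitted to the 8 libraries alone, 0 passed in peritubular capillaries at 72 h and 1 for sham against healthy whole kidney. With the replicate block, 1 passed for the CLP effect at 24 against 4 h in whole kidney, and every other count of called genes stayed within 1.5 times. S1pr1 in whole kidney at 4 h passed with the block, as given above. Among single results for the set and the partner lists, 7 calls were lost with the block and 2 were gained. Of the same results, 4 calls were lost with RLE scaling, 10 without the filter on low counts and 8 with the 8 libraries alone. The fit to the 8 libraries gained 1 call and DESeq2 gained 13. Without the mouse as a block (no replicate block), 1 passed for the CLP effect between compartments at 72 h. The replicate numbers pair no mice by design. The correlation of same-numbered CLP and sham residuals was over 0.1 in 3 of 4 pairs in whole kidney at 24 h (up to 0.438), in 2 of 4 at 72 h (up to 0.315) and in none elsewhere.

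Over the omissions of 1 mouse, the number called ranged from 1 to 3 in whole kidney at 4 h and from 0 to 1 at 24 h, from 0 to 1 in glomeruli at 4 h, and from 1 to 2 in peritubular capillaries at 72 h. It ranged from 0 to 2 for the CLP effect at 24 against 4 h, from 0 to 1 for the CLP effect between compartments at 72 h, and from 2 to 3 in healthy arterioles and healthy peritubular capillaries. Log2 fold changes that changed sign were small or rested on few counts. In whole kidney they ranged over -0.0332 to 0.21 for Pecam1, -0.27 to 0.11 for Jam2 and -0.14 to 0.12 for Jam3 at 4 h, over -0.25 to 0.0225 for Esam, -0.12 to 1.04 for Tjp1 and -0.13 to 0.24 for Robo4 at 24 h, and over -0.0154 to 0.30 for Cdh5, -0.11 to 0.26 for Jam2 and -0.0949 to 0.30 for Jam3 at 72 h. At 4 h Esam in arterioles ranged over -0.29 to 0.20, and was -0.00114 with the 8 libraries alone. S1pr1 in peritubular capillaries ranged over -0.74 to 3.31, and was -1.12 with the replicate block. Robo4 in peritubular capillaries at 24 h ranged over -2.80 to 12.32. The cause of these shifts was not tested. A zero in a microdissected library allows up to 0.635 CPM, and 56.2% of capillary values at 24 and 72 h were zeros.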
